A study of Mus musculus with 12 samples.

Results

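The ends of mouse autosomes were described by the direction in which replication forks crossed them and by the number of Okazaki fragment reads they gave. The centromere side of a chromosome was taken as its first 5 Mb after position 3000000, at or up to 100 kb before the first known base of the mm10 assembly (GRCm38), and the telomere side as its last 5 Mb. All autosomes but chromosomes 2 and 18 were used, which gave 34 ends, 17 on each side, with 170000 bins of 1 kb out of 2725511 bins in the files. The ends are defined by position along the assembly, and the definition leaves out chromosomes 2 and 18.

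The reads came from OK-seq, a method that isolates EdU-labelled Okazaki fragments and sequences them with their strand, in mouse embryonic stem cells in the naive state and after their transition to epiblast-like cells (EpiLCs). The 12 samples formed 6 conditions with 2 replicates each, but the tables hold the sum of both replicates, so each condition is 1 library here and no spread between replicates can be given. In each state, the control was KMT2CKO cells, which lack the H3K4 methyltransferase KMT2C, so all 3 genotypes carry a lesion in that enzyme or its activity. KMT2C/D dKO cells had lost KMT2D as well, through Cre-ER and 4-hydroxytamoxifen in KMT2CKO/KMT2DcKO cells of a mixed strain background. KMT2C/D dCD cells are labelled as catalytic dead for both enzymes, and the methods give the cells with the catalytic-dead KMT2D allele as R1 cells, of another strain background, so that genotype, strain and cell line cannot be told apart for this mutant. The naive libraries held 4409068 (KMT2CKO), 3937871 (dKO) and 3655095 (dCD) reads and the EpiLC libraries 11407678, 12962445 and 13601460. All intervals given are 95% intervals of counting error alone, with each read taken as independent. Several reads may come from 1 fragment, without molecular identifiers to tell them apart, so the intervals may be too narrow. Every comparison is between these libraries and not a test of the conditions.

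Okazaki fragments form on the lagging strand, so the strand of a fragment tells which way its fork was moving. The share of reads on the Crick strand (the Crick share) is the share of forks moving from left to right along the assembly, and it rises across a site where forks start. Mouse chromosomes are acrocentric: the centromere lies next to the first assembled base, behind arrays of satellite DNA that the assembly leaves out, and the other end runs into a telomere. On the telomere side, a fork moving outward, toward the chromosome end, adds to the Crick share. On the centromere side, an outward fork adds to the Watson share. No fork can enter the telomere side from beyond the chromosome end, so an inward fork there started somewhere between its position and the telomere.

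The centromere side of chromosome 9 opens with a repeat, shown because it holds 26 of the 51 high-count bins with which the centromere-side result of the naive libraries turns. Shifted by 234 bases, its first 39 kb of known sequence matched themselves at 70.7% of positions, against 27.2% to 61.4% at the best shift on the other 16 centromere-side ends, and 234 bases is the unit length of mouse major satellite, the repeat of pericentric heterochromatin. Its first unit (chr9:3000001-3000234, GRCm38, plus strand, runs of 4 or more T in capitals) shows the strand asymmetry of the repeat.
Chromosome 9 centromere side: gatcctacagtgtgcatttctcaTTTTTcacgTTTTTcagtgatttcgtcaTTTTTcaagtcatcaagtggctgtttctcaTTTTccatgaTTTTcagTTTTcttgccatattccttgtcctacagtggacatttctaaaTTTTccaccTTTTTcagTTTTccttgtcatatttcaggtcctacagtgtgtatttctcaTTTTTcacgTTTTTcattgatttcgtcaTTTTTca
T made up 48.3% and A 17.5% of this unit, with 12 runs of 4 or more T and 0 of A.

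In the outermost 500 kb of the telomere side, the Crick share was below 50% in all 6 libraries, so that fewer forks moved toward the telomere than away from it. It was 43.0% (41.98 to 43.9) in naive KMT2CKO, 40.8% (39.8 to 41.8) in naive dKO and 40.05% (38.95 to 41.2) in naive dCD. In EpiLCs, it was 42.7% (42.1 to 43.3) in KMT2CKO, 41.9% (41.4 to 42.5) in dKO and 41.0% (40.5 to 41.6) in dCD. No library had an interval that reached 50%, and the intervals of naive KMT2CKO and naive dCD did not overlap. The rest of the same 17 autosomes had a Crick share of 49.92% to 50.01%. Against that rest, the telomere side differed by -6.97 points (-7.95 to -5.99) in naive KMT2CKO and by -9.94 points (-11.0 to -8.84) in naive dCD, and the other 4 libraries lay between these values.

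The low Crick share was a feature of most chromosomes. It was below 50% at 13, 15 and 11 of 17 telomere-side ends in the naive KMT2CKO, dKO and dCD libraries and at 16, 16 and 14 in the EpiLC libraries in the same order. Of all 4219 windows of 500 kb with at least 100 reads in each library, 50.6%, 50.5% and 50% were below 50% in the naive libraries and 50.6%, 50.7% and 50.8% in the EpiLC libraries. The Crick share was 40% or lower at 7, 8 and 10 ends in the naive and at 5, 9 and 10 in the EpiLC libraries. The background for this limit was 11.4%, 14.2% and 20.4% of all windows in the naive and 6.54%, 9.39% and 13.4% in the EpiLC libraries. No telomere-side end reached 60% in any library, against 11.2%, 14.7% and 19.4% of all windows in the naive and 7.58%, 9.24% and 13.1% in the EpiLC libraries. Chromosomes 1, 3, 5, 6, 8, 10, 12, 13, 14, 16 and 17 were below 50% in all 6 libraries (11 of 17 ends, against 36.2% of all windows) and only chromosome 9 was above 50% in all 6 (34.9% of all windows). The ends differed among themselves, and the 17 shares had a mean of 42.8% ± 8.12 (SD over ends) in naive KMT2CKO.

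Within the outermost 1 Mb, the shift was strongest next to the telomere, as the plot of the Crick share in 100 kb steps shows. Between 100 and 200 kb from the assembly end (the last 100 kb are unknown bases on every chromosome), the Crick share was 37.2%, 38.1% and 32.0% in naive KMT2CKO, dKO and dCD and 37.3%, 38.5% and 33.8% in the EpiLC libraries. Between 500 and 600 kb, it lay at 50.9% to 54.2%. It fell once more further inside, to between 38.9% and 46.04% at 900 to 1000 kb. Over the whole 5 Mb, the outermost of the 10 steps of 500 kb had the lowest share in each library, but a low share was also found far from the telomere. At 4500 to 5000 kb, the Crick share was 43.4% to 45.4% in the 6 libraries, below 50% at 9 to 13 of 17 chromosomes, and at 1500 to 2000 kb it was above 50%, at 52.8% to 54.4%.

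**Figure D1:**
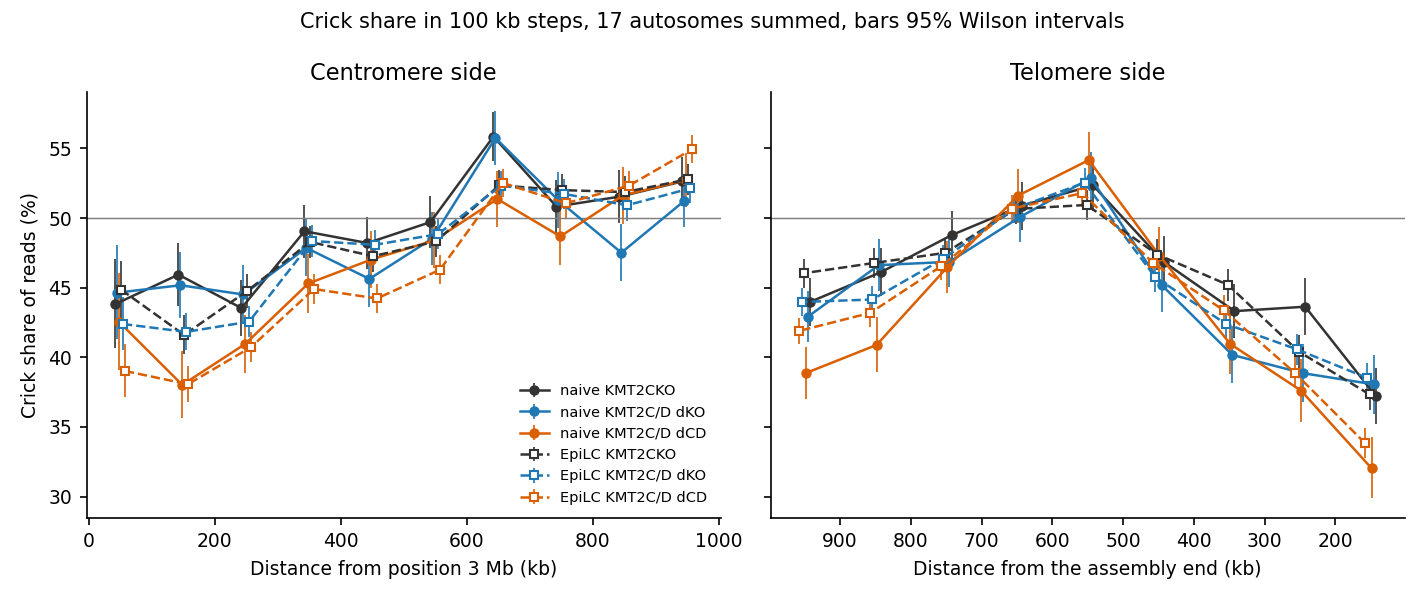
Crick share of reads (y axis, percent) in 100 kb steps over the outermost 1000 kb (x axis), summed over 17 autosomes, with the centromere side on the left and the telomere side on the right. Points are libraries and bars 95% Wilson intervals; toward the telomere all 6 libraries fall to between 32.0% and 38.5% at 100 to 200 kb, and toward the centromere side they lie between 38.0% and 45.9%.

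The telomere-side ends with the lowest outward share over the outermost 1 Mb in the mean of both controls were chromosomes 17, 14 and 1. On chromosome 17, where Mettl4 (a DNA and RNA adenine methyltransferase) is the outermost protein-coding gene at 237 kb from the end, the Crick share over 1 Mb was 35.0%, 31.4% and 26.2% in naive KMT2CKO, dKO and dCD and 39.6%, 36.8% and 33.6% in EpiLCs. The order of genotypes was the same in both states. This end was poor in genes, with 3 transcription start sites of protein-coding genes in 5 Mb, and poor in T on the plus strand, with T minus A at -3.201% of known bases over the same 1 Mb. With the part of the Crick share that follows T minus A taken off, the control values of this end were 41.0% (naive) and 43.3% (EpiLC). On chromosome 14, whose outermost gene Fgf14 encodes an intracellular fibroblast growth factor homologue, the control values were 37.9% (naive) and 43.4% (EpiLC). On chromosome 1, with Cr2 (a complement receptor) 295 kb from the end, they were 40.8% and 40.5%.

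At the other extreme stood chromosomes 13, 4 and 15. Chromosome 13, where Tcstv3 (a gene of the 2-cell-stage variable group) lies 103 kb from the end, had a Crick share over 1 Mb of 60.7% in naive and 56.6% in EpiLC KMT2CKO. Its outermost 500 kb gave only 167 and 506 reads in these libraries and a Crick share of 43.1% in each, so the excess of outward forks lay in the next 500 kb. Chromosome 4 had 54.1% and 52.0% in the controls over 1 Mb, and its outermost annotated protein-coding gene is Vmn2r-ps159, of the vomeronasal receptor family. Chromosome 15 (outermost gene Mucl2) had 52.8% and 52.4%. Chromosome 9 was the only end above 50% in all 6 libraries over the outermost 500 kb, at 51.2% to 59.2%.

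On the centromere side, the Crick share of the outermost 500 kb was also below 50%, which here means that more forks moved outward, toward the centromere, than inward. It was 46.6% (45.6 to 47.5), 45.7% (44.7 to 46.8) and 43.2% (42.1 to 44.2) in naive KMT2CKO, dKO and dCD. In EpiLCs, it was 45.8% (45.2 to 46.3), 45.3% (44.7 to 45.9) and 42.1% (41.6 to 42.7). Against the rest, the differences ran from -3.36 points (naive KMT2CKO) to -7.85 points (EpiLC dCD), each with an interval below 0. It was below 50% at 14, 11 and 12 of 17 ends in the naive and at 12, 13 and 15 in the EpiLC libraries, against the same background shares of windows as above. Chromosomes 4, 5, 6, 8, 9, 10, 12, 13 and 19 were below 50% in all 6 libraries, 9 of 17 ends against the same 36.2% of all windows. By 500 to 1000 kb, the share was back at 50.6% to 52.2%. Shifts of like size lay further inside: the share was 53.2% to 57.1% at 2000 to 2500 kb and 46.4% to 48.3% at 4500 to 5000 kb. Over the whole 5 Mb, the centromere side differed from the rest by 0.101 to 0.521 points, above 0 in all 6 libraries, with an interval above 0 in naive KMT2CKO, EpiLC KMT2CKO and EpiLC dKO.

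**Figure D2:**
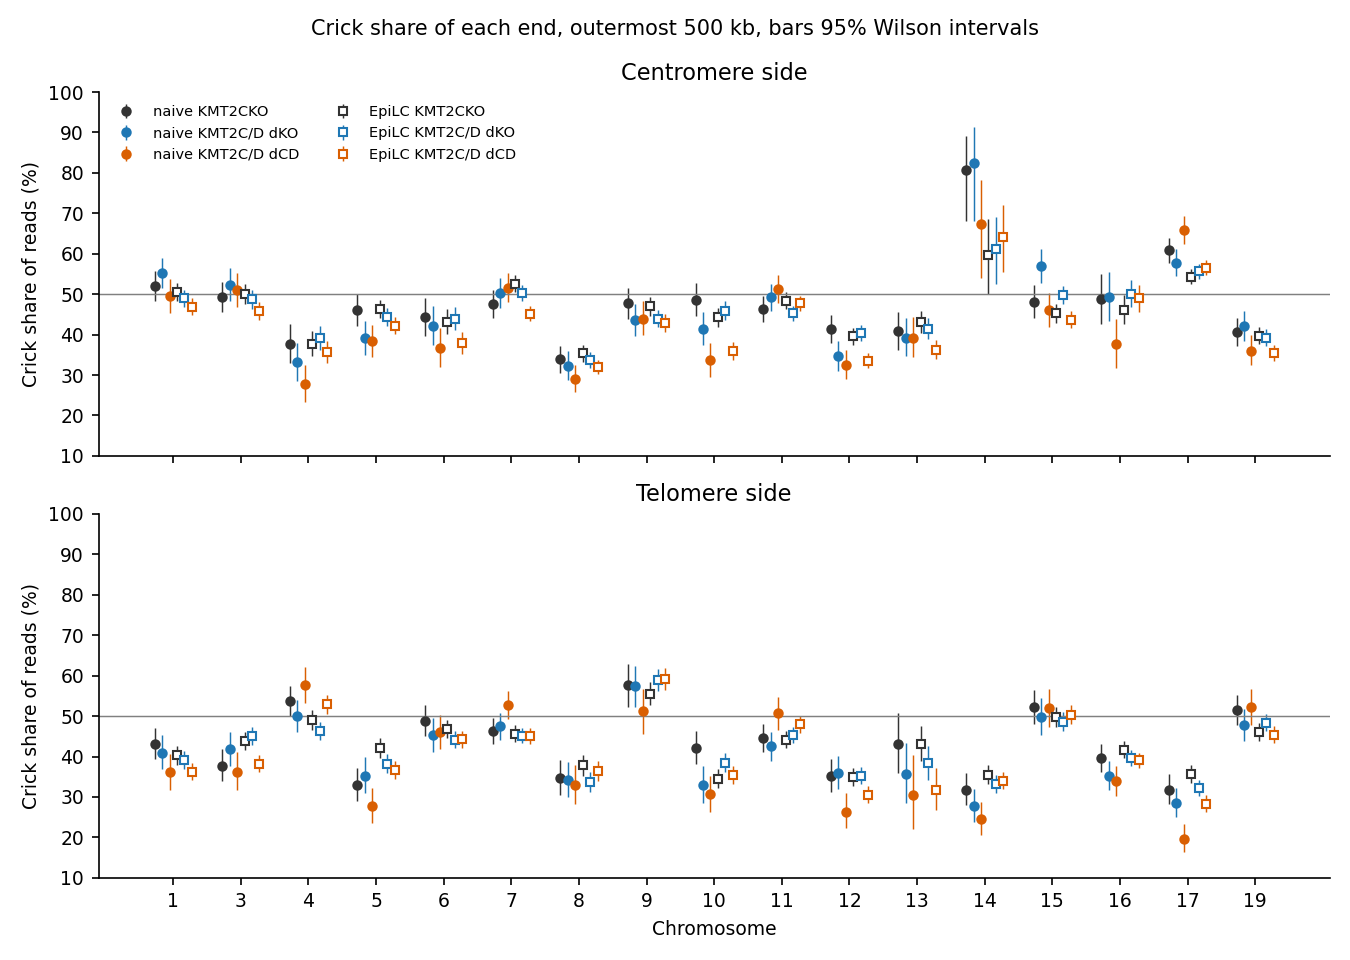
Crick share of reads (y axis, percent) in the outermost 500 kb of each chromosome (x axis), with the centromere side above and the telomere side below; points are the 6 libraries and bars 95% Wilson intervals. On the telomere side, 11 chromosomes are below the 50% line in all 6 libraries and chromosome 9 is above it, and on the centromere side 9 chromosomes are below it and chromosomes 14 and 17 above it in all 6.

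This result for the centromere side depended on 51 bins with very high counts that were left out on 6 of its 17 ends (bins with over 10 times the median count of a library). These bins held 23.8%, 25.8% and 24.3% of all reads of the outermost 500 kb in the naive libraries and 16.0%, 15.9% and 10.7% in the EpiLC libraries. With them in, the centromere side differed from the rest by 3.47 (naive KMT2CKO), 3.52 (naive dKO) and 1.83 points (naive dCD), the opposite direction, while the EpiLC libraries and the telomere side, where 3 such bins held at most 0.603% of reads, kept their direction. In EpiLC KMT2CKO, dKO and dCD, the 51 bins had a Crick share of 66.1%, 64.2% and 54.2%, so the centromere-side shares of these libraries rise with them in. Of the 51 bins, 26 lay in the first 39 kb of chromosome 9 and 20 between 100 and 200 kb on chromosome 11.

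The 26 bins of chromosome 9 lie in the satellite repeat shown above. They gave 2094, 2165 and 1983 reads in naive KMT2CKO, dKO and dCD and 2855, 2989 and 1250 in the EpiLC libraries, and 92.2%, 90.7% and 94.0% (naive) and 82.1%, 83.7% and 84.6% (EpiLC) of them were on the Crick strand. They made up 75.9%, 78.5% and 78.6% of all reads of the outermost 500 kb of chromosome 9 in the naive libraries and 62.1%, 59.8% and 39.3% in the EpiLC libraries, so the repeat took a smaller share in EpiLCs and the smallest in EpiLC dCD. Over the 17 autosomes, the Crick share of a bin relative to its neighbours rose by 1.202 to 1.82 points for each percent of T minus A, which was 28.0% in this repeat. The part of this base composition in the strand share of the repeat was not tested.

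Chromosomes 14 and 17 were the only centromere-side ends above 50% in all 6 libraries over the outermost 500 kb, and chromosomes 1, 3, 7, 11, 15 and 16 were above 50% in some libraries and below it in others. On chromosome 14, the Crick share of the outermost 500 kb was 59.6% to 82.5%, but from only 40 to 131 reads per library: 69.8% of the bins of these 500 kb had no read in any library, and the read density of the end over 5 Mb was 0.135 to 0.148 of that of the rest of the chromosome. Its outermost gene is the predicted gene Gm2888. On chromosome 17, with 732 to 2810 reads, it was 54.4% to 66.0%, and the outermost gene is Scaf8, which encodes a protein that binds the tail of RNA polymerase II. Chromosome 9 (outermost gene Gm10722, within the satellite repeat) was the end with the next highest share over 1 Mb, with 55.4% and 53.1% in the controls once the repeat bins were out. Over the outermost 500 kb it was below 50% in all 6 libraries, at 47.7% and 47.0% in the controls, and over 1 Mb it was 48.7% and 49.6% after removal of what follows T minus A. The ends with the most outward forks over 1 Mb were chromosome 16 (Olfr161, an olfactory receptor), at 43.5% and 41.4% Crick in the naive and EpiLC controls, chromosome 10 (H60c, a ligand of the NKG2D receptor), at 42.4% and 43.1%, and chromosome 19 (Ighmbp2, a helicase), at 44.0% and 43.8%.

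The bias toward the Watson strand was still present at both sides when the part of the Crick share that follows T minus A was taken off. The telomere side (T minus A -0.796% in the outermost 500 kb) then had 44.6%, 42.5% and 41.9% in the naive and 43.4%, 42.9% and 42.02% in the EpiLC libraries, and the centromere side (T minus A 0.802%) had 45.9%, 45.0% and 43.0% and 45.1%, 44.8% and 41.8%. Across the 17 telomere-side ends, T minus A and the Crick share ranked alike, with Spearman's rho of 0.73 in naive and 0.62 in EpiLC KMT2CKO. For the centromere side, rho was 0.63 and 0.52. Ends share libraries and differ in read number, so these values are descriptions.

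Measured as the share of forks moving outward, the sides therefore differed. Over the outermost 1 Mb, it was 46.3%, 45.1% and 43.9% on the telomere side in naive KMT2CKO, dKO and dCD and 46.1%, 45.3% and 44.5% in EpiLCs. The Crick share of the centromere side over the same length was 49.8%, 48.7% and 47.4% in the naive and 49.1%, 48.7% and 47.6% in the EpiLC libraries. Its pooled outward share was thus above 50%, although the interval of naive KMT2CKO (49.2 to 50.5 as Crick share) included 50%. The ends were divided, with a Crick share below 50% at 8, 9 and 10 of 17 centromere-side ends in the naive and at 10, 10 and 13 in the EpiLC libraries. As a mean over chromosomes, it was 51.1% and 50.2% in naive KMT2CKO and dKO, on the other side of 50%. In all 6 libraries, 6 centromere-side ends were below 50% (36.3% of all 2118 windows of 1 Mb) and 4 above it (36.2%), and 11 telomere-side ends were below and 5 above (chromosomes 4, 9, 11, 13 and 15). Telomere minus centromere side was -3.89 points (-4.76 to -3.01) in naive KMT2CKO, -6.16 in naive dKO and -8.65 in naive dCD, and -4.87, -5.95 and -7.95 in EpiLCs, with each interval below 0. With the bins of very high counts in, the naive values were -0.866, -2.45 and -4.75. Over the whole 5 Mb, the naive KMT2CKO value was -0.0135 points with an interval that included 0, and the other 5 stayed below 0.

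Between genotypes, the Crick share of the outermost 1 Mb was lower in the mutant libraries at both sides. At the telomere, the outward share differed from the KMT2CKO library of the same state by -1.15 points (-2.04 to -0.266) in naive dKO, -2.37 (-3.29 to -1.45) in naive dCD, -0.728 (-1.24 to -0.221) in EpiLC dKO and -1.58 (-2.09 to -1.08) in EpiLC dCD. The centromere side differed by 1.12 (0.212 to 2.03), 2.39 (1.47 to 3.32), 0.352 (-0.173 to 0.877) and 1.51 points (0.989 to 2.03) in the same order. Only the centromere-side interval of EpiLC dKO included 0. The mutants thus stood further from 50% than their control over the outermost 1 Mb of the telomere side. Several of these calls ended under other settings, which are listed in the last section. Over 500 kb, the intervals of naive dKO on the centromere side (0.818, -0.577 to 2.21) and of EpiLC dKO on the telomere side (-0.772, -1.57 to 0.0220) included 0. So did that of EpiLC dKO on the centromere side (0.462, -0.343 to 1.27). Over the whole 5 Mb, only the telomere side of EpiLC dCD kept an interval without 0 (-0.347, -0.553 to -0.141), and the centromere side of EpiLC dKO turned to -0.0662 (-0.295 to 0.162).

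Single ends moved unevenly. In naive dCD against KMT2CKO, the Crick share of the outermost 500 kb was lower at 13 of 17 telomere-side ends, with the interval below 0 at chromosomes 1, 10, 12, 13, 14, 16 and 17 (17.4% of all windows) and above 0 at 2 ends (18.6% of all windows), and at 13 of 17 centromere-side ends, with the interval below 0 at chromosomes 4, 5, 6, 8, 10, 12 and 16 and above 0 at 2 ends. The largest rises were 6.51 points on the telomere side and 5.18 points on the centromere side. In EpiLC dCD, it was lower at 12 telomere-side and 14 centromere-side ends. In dKO, it was lower at 13 (naive) and 11 (EpiLC) telomere-side ends and at 9 centromere-side ends in each state. The dKO intervals lay below 0 at 1 (naive) and 3 (EpiLC) telomere-side ends and above 0 at 0 and 1. On the centromere side, they lay below 0 at 3 and 1 ends and above 0 at 1 end in each state. Of the 3890 windows of the rest, 49.4% to 50.7% were lower in the mutant. A difference of 10 points or more in naive dCD was found at 2 of 16 telomere-side and 3 of 16 centromere-side windows next to the end with at least 100 reads, against 5.71% of all windows. No such window passed this limit in naive dKO (0.521% of all windows), EpiLC dKO (0.0474%) or EpiLC dCD (0.356%).

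The mutant libraries also had a wider spread of the Crick share across the 17 autosomes. The amplitude of a library, the SD of the Crick share over 50 kb windows of the 17 autosomes less counting error, was 12.6, 13.2 and 16.5 points in naive KMT2CKO, dKO and dCD and 9.71, 10.6 and 12.3 points in EpiLCs. For values by amplitude, the distance of each mutant share from 50% was divided by the ratio of its library's amplitude to the control's. This acts little where a share lies near 50%, as on the centromere side over 1 Mb. The telomere-side differences over 1 Mb were then smaller. Those of EpiLC dKO (-0.325, -0.812 to 0.162) and EpiLC dCD (-0.438, -0.897 to 0.0207) had intervals that included 0. Over the outermost 500 kb, the values by amplitude were -0.547 (-1.83 to 0.739) in naive dCD and 0.192 (-0.529 to 0.913) in EpiLC dCD, so the first lost its call and the second turned. What sets the amplitude, including the strain of the cells and the purity of the fragments, was not tested.

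**Figure D3:**
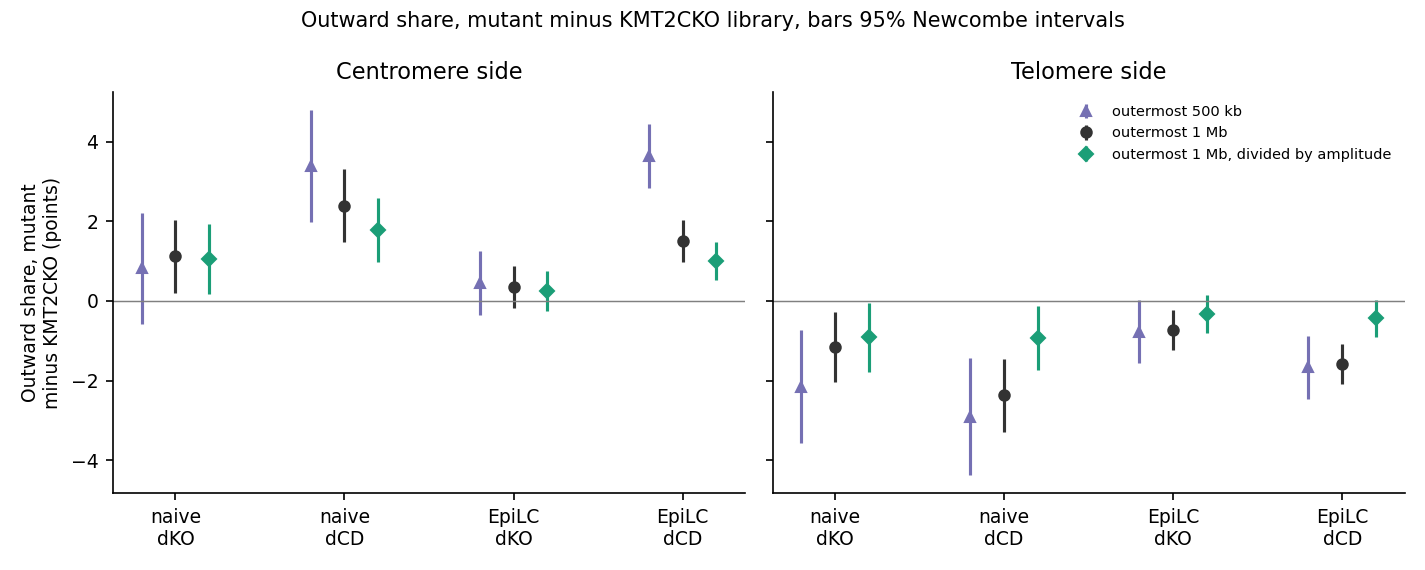
Outward share in the mutant library minus that in the KMT2CKO library of the same state (y axis, points) for the 4 mutant libraries (x axis), on the centromere side (left) and the telomere side (right); bars are 95% Newcombe intervals. Values lie above 0 on the centromere side and below 0 on the telomere side over 500 kb (triangles), over 1 Mb (circles) and over 1 Mb after division by amplitude (diamonds), and the last lie closest to 0 on the telomere side.

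Between states, most differences in fork direction at the ends had intervals that included 0. EpiLC minus naive outward share over 1 Mb ranged from -0.205 to 0.586 points on the telomere side and from -0.112 to 0.775 points on the centromere side. Only the centromere side in KMT2CKO had an interval without 0 (0.775, 0.0465 to 1.50), and it included 0 over 500 kb and over 2 Mb. With no bins left out for high counts, the centromere-side values of dKO and dCD lay above the range given, and that of dCD turned in direction. The naive libraries have the larger amplitude. The EpiLC shares were scaled in the same way to the naive library of their genotype. The telomere-side values over 1 Mb were then -1.37 (-2.15 to -0.597) in KMT2CKO, -0.927 (-1.702 to -0.153) in dKO and -1.33 (-2.15 to -0.502) in dCD. Each had an interval below 0, and those of dKO and dCD turned in direction. Windows next to the end that differed by 10 points or more numbered 0 in KMT2CKO (1.23% of all windows) and dKO (0.64%) and 1, on the centromere side, in dCD (4.34%). No mutant's difference from its control differed between the states beyond its interval.

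With the bins of very high counts left out, read density fell at both kinds of end. Relative to the rest and per kb of known sequence, the outermost 500 kb of the centromere side had a density of 0.719 to 0.752 in the 6 libraries. The bins left out there held 23.8%, 25.8% and 24.3% of its reads in naive KMT2CKO, dKO and dCD and 16.0%, 15.9% and 10.7% in EpiLCs. How much of the centromere-side fall remains with them in is not given here. Within the outermost 500 kb, density among the bins kept rose from 0.339 to 0.392 in the first 100 kb to 0.861 to 0.937 at 400 to 500 kb. The bins left out at the start of chromosome 9 alone gave 2094 reads in naive and 2855 in EpiLC KMT2CKO. All bins kept in the first 100 kb gave 924 and 2303, so the low density there is for the bins kept only. Density then stood near 1 at 1500 to 2000 kb and declined again to 0.820 to 0.840 at 4500 to 5000 kb. On the telomere side, density was 0.799 to 0.941 in the outermost 500 kb and above 1 in all further steps, and it reached 1.15 to 1.19 at 2000 to 2500 kb. Over the whole 5 Mb, the telomere side took 4.20% to 4.33% of the reads of the 17 autosomes with 3.88% of their bins with sequence, and the centromere side 3.49% to 3.55% with 3.96%.

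**Figure D4:**
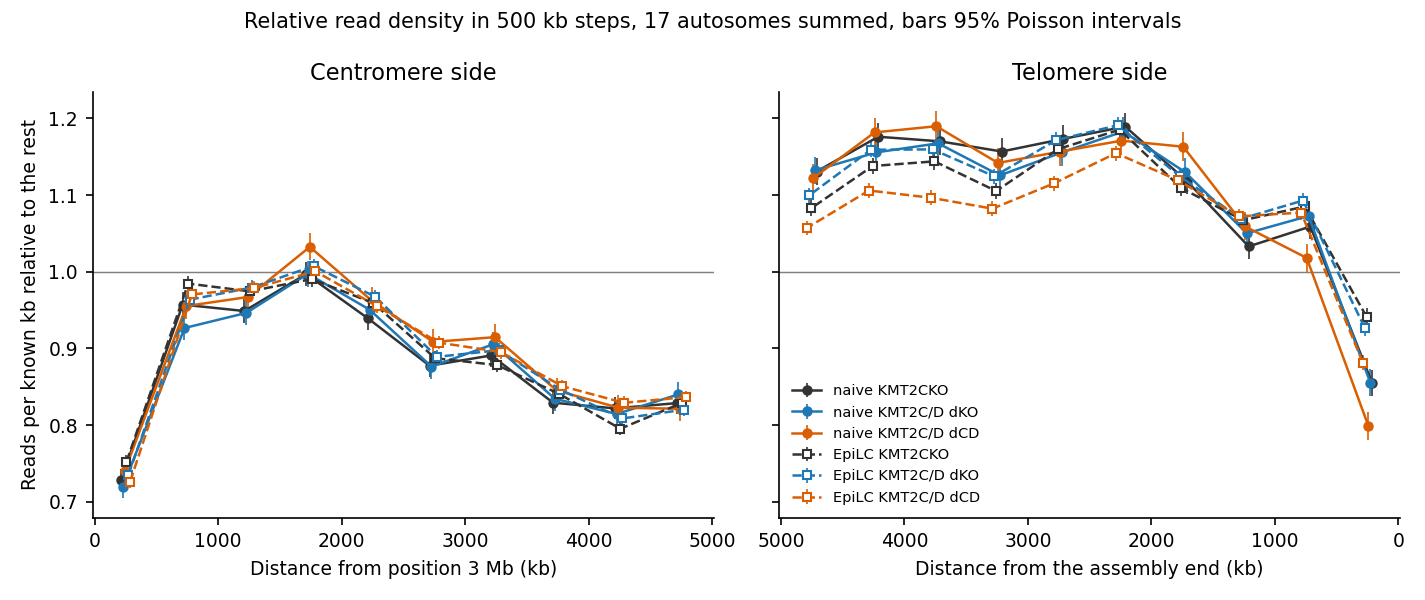
Reads per known kb relative to the rest of the 17 autosomes (y axis) in 500 kb steps over 5 Mb (x axis), with the centromere side on the left and the telomere side on the right; points are libraries and bars 95% Poisson intervals. Bins of very high counts are left out, and in the last centromere-side step these held 10.7% to 25.8% of the reads. Among the bins kept, both sides drop in the last step next to the end, to 0.719 to 0.752 on the centromere side and 0.799 to 0.941 on the telomere side. On the telomere side, the EpiLC points of each genotype lie above the naive points there.

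Across whole ends, base content moved with density. GC content was 44.0% on the telomere side, 41.6% on the centromere side and 41.9% in the rest, and the share of bins with sequence but no read in any library was 2.09%, 7.37% and 3.39%. Over 5 Mb, density against the own chromosome ranked with GC content across the 17 telomere-side ends (Spearman's rho of 0.86 in naive and 0.75 in EpiLC KMT2CKO) and across the 17 centromere-side ends (0.62 and 0.51). Over the outermost 500 kb, rho was lower, at 0.55 and 0.34 on the telomere side and 0.54 and 0.47 on the centromere side. At the end itself the sides differed. Among the bins kept, the outermost 500 kb of the centromere side had the lowest density of the 10 steps. Its GC content was the highest of them (42.3%), the opposite order. On the telomere side, the outermost 500 kb had both the lowest GC content of the 10 steps (41.2%) and the lowest density (0.799 to 0.941). The part of GC content in the density of the ends was not tested. Mappability was not measured: the share of bins without reads comes from the same reads as the density. The telomere side also held more genes, with 12.5 transcription start sites of protein-coding genes per Mb against 10.1 on the centromere side and 8.44 in the rest. Olfactory receptors made up 6.78% of its 1033 start sites (70), 1.17% of the 852 on the centromere side (10) and 4.55% of the 16566 in the rest. Keratin genes made up 3.001% (31), 0% and 0.495%, zinc finger genes 1.06% (11), 2.82% (24) and 2.07%, and vomeronasal receptors 0.581% (6), 2.58% (22) and 1.81% in the same order, and genes of these families lie in clusters.

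The outermost 500 kb of the telomere side gave more reads in EpiLCs than in naive cells, in all 3 genotypes. The density per known kb was 0.855 (naive) and 0.941 (EpiLC) in KMT2CKO, 0.856 and 0.927 in dKO and 0.799 and 0.881 in dCD. Taken against the same chromosome's own rest, EpiLC over naive was 1.10 (1.08 to 1.13) in KMT2CKO, 1.08 (1.06 to 1.11) in dKO and 1.10 (1.07 to 1.13) in dCD. The ratio was above 1 at 15 of 17 ends in each genotype, against 49.6%, 50.1% and 55.2% of all windows in KMT2CKO, dKO and dCD. Its interval lay above 1 at 8 ends in each (15.4%, 10.8% and 17.9% of all windows) and below 1 at 0, 0 and 1 end (15%, 11.1% and 17%). The exceptions were chromosomes 4 and 7 in KMT2CKO, 13 and 17 in dKO, and 7 and 13 in dCD. On the centromere side, the ratios were 1.03 (1.01 to 1.06), 1.02 (0.998 to 1.05) and 0.981 (0.958 to 1.004), with 11, 10 and 5 of 17 ends above 1. They leave out the bins of very high counts, which held 23.8%, 25.8% and 24.3% of the naive reads of this stretch. In EpiLCs, these bins held 16.0%, 15.9% and 10.7%. The centromere-side call above 1 in KMT2CKO is therefore for the bins kept only, and ratios over this length with the other bins in are not given here.

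**Figure D5:**
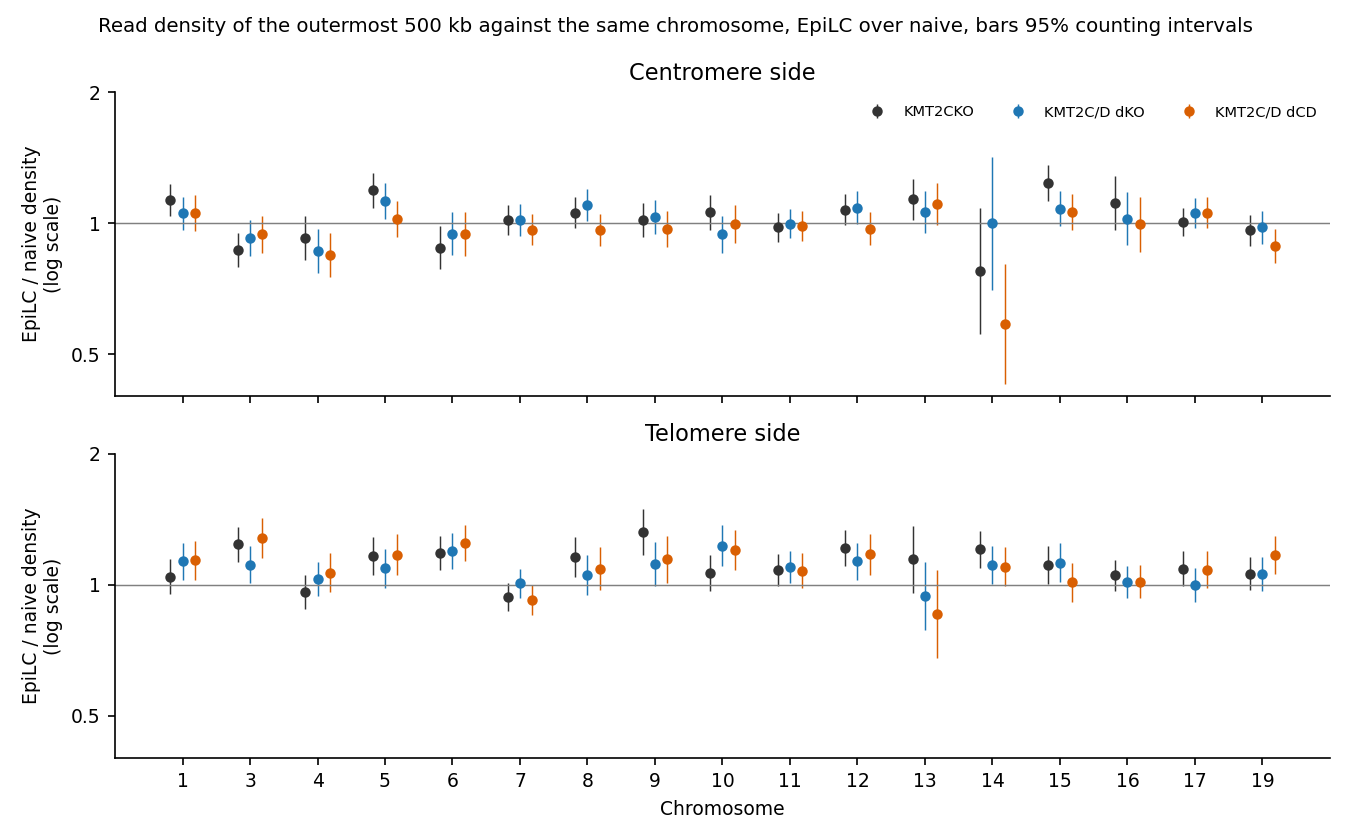
Read density of the outermost 500 kb relative to the rest of the same chromosome, EpiLC over naive (y axis, log scale), for each chromosome (x axis), with the centromere side above and the telomere side below; points are the 3 genotypes and bars 95% counting intervals. On the telomere side, 15 of 17 points of each genotype lie above 1, up to 1.32 at chromosome 9 in KMT2CKO, and on the centromere side 11, 10 and 5 do. Bins of very high counts are left out.

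The excess in EpiLCs shrank over longer stretches. Over 1 Mb, EpiLC over naive on the telomere side was 1.05 (1.04 to 1.07) in KMT2CKO, 1.04 (1.03 to 1.06) in dKO and 1.07 (1.06 to 1.09) in dCD. Over the whole 5 Mb, it was 0.994 (0.988 to 0.999), 1.006 (1.0001 to 1.012) and 0.975 (0.969 to 0.981) in the same order. Windows next to the telomere-side end that differed by 25% or more between states (the higher over the lower density) numbered 1 in KMT2CKO (0.569% of all windows), 0 in dKO (0.0711%) and 1 in dCD (1.59%). GC content of the outermost 500 kb was 41.2%, close to that of the rest.

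The dCD libraries gave fewer reads next to the telomere than their controls in both states. In the outermost 500 kb of the telomere side, dCD over KMT2CKO was 0.935 (0.907 to 0.963) in naive cells and 0.936 (0.921 to 0.951) in EpiLCs. The ratio was below 1 at 14 of 17 ends in the naive state, against 49% of all windows, and at all 17 in EpiLCs, against 48%. It was lowest at chromosome 13, at 0.679 and 0.509, where this stretch gave 167 reads in KMT2CKO and 92 in dCD in the naive state and 506 and 300 in EpiLCs. For dKO, the ratios were 1.0004 (0.972 to 1.03) and 0.984 (0.968 to 0.9999). The outermost 500 kb of the centromere side also gave fewer reads in the EpiLC mutants, with 0.965 (0.9499 to 0.981) in dCD, where 12 of 17 ends were below 1, and 0.976 (0.961 to 0.992) in dKO. In the naive state, the centromere-side ratios were 1.02 (0.988 to 1.05) in dCD and 0.987 (0.9596 to 1.01) in dKO, with intervals that included 1. Among windows next to an end with at least 100 reads in all 6 libraries, which leaves out chromosome 13 on the telomere side and chromosome 14 on the centromere side (naive dCD over KMT2CKO of 1.34 from 55 and 52 reads), none differed by 25% or more in dKO (0.119% of all windows in the naive state, 0.0948% in EpiLCs) or dCD (1.87% and 1.3%), and no whole 5 Mb end passed that limit in any mutant.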

How the data were processed

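The 12 samples are OK-seq libraries of 6 conditions. Per the labels and the methods, the authors aligned reads to mm10 with Bowtie2 and counted Watson and Crick reads in bins of 1 kb; the submitters' processing notes also name FastQC, Trim Galore and Picard and list hg19 beside mm10, and removal of duplicates is not given in the sources used here. The deposited values are signal: read sums of both replicates divided by 1000, and multiplication by 1000 gave whole numbers in every bin. Whole-series reads, 2725511 bins a table, were cut to the 34 ends and the rest of the same 17 autosomes. Bins above 10 times the median count of any library (350) were left out. Shares have Wilson, differences Newcombe and densities Poisson intervals (Python 3, numpy, pandas, scipy). With 1 summed library per condition, no spread within a condition can be had and no test was run; a difference is called where its 95% interval excludes 0, or 1 for ratios. Windows were compared at limits of 10 points and 25%. Scripts were tested on simulated data. The 3 highest and 3 lowest ends per side by outward share over 1 Mb in the controls, and their outermost protein-coding genes, were named, as were ends past 25% in density against the control in both states (0). Members, lists and limits were chosen with earlier results of these data known. Alternatives covered the bins left out, the length of the end, the averaging, T minus A, amplitude, thinning and leaving out each chromosome. Sequences and annotation came from GRCm38 (RefSeq genome, GENCODE vM21 genes). The sequence next to the telomere-side ends is not reported here.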

Additional observations from a re-analysis of the deposited data

How the results depend on the processing

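No paired analysis was possible because both replicates of each condition are summed in the tables. Alternatives over the whole 5 Mb, over 500 kb combined with a correction, for the Crick share against the rest and for leaving out chromosomes in the density ratios were chosen after seeing the data, and the cause of each change was not tested. Telomere minus centromere side kept its direction in all alternatives, with an interval that included 0 only over the whole 5 Mb in naive KMT2CKO (-0.0135). The Crick share against the rest kept its direction on the telomere side in all alternatives, the whole 5 Mb included. On the centromere side, it turned with no bins left out in naive KMT2CKO (3.47), dKO (3.52) and dCD (1.83), and over the whole 5 Mb in all 6 libraries (0.521, 0.134 and 0.245 in naive KMT2CKO, dKO and dCD, 0.289, 0.398 and 0.101 in EpiLCs), and its interval included 0 in naive KMT2CKO over 1 Mb (-0.0854) and 2 Mb (-0.269).

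For the mutants against their controls, intervals came to include 0, or the direction turned, in 24 of 96 values. In dKO on the centromere side in the naive state, this was with no bins left out (0.617), as a mean over chromosomes (0.864), over 500 kb (0.818, and 0.931 without T minus A and 0.609 by amplitude) and over 5 Mb (0.355). In dKO on the telomere side in the naive state, it was over 2 Mb (-0.545), after thinning (-0.936) and over 5 Mb (-0.104). In dCD in the naive state, it was over 5 Mb (0.210 centromere, -0.210 telomere), and on the telomere side over 2 Mb (-0.364) and over 500 kb by amplitude (-0.547). In EpiLC dKO, the centromere side turned over 5 Mb (-0.0662), and the telomere side included 0 over 500 kb (-0.772, and -0.502 without T minus A and -0.0727 by amplitude), over 2 Mb (-0.185), over 5 Mb (-0.0310), by amplitude (-0.325) and after thinning (-0.872). In EpiLC dCD, it was over 5 Mb on the centromere side (0.225), and on the telomere side by amplitude (-0.438) and, turning, over 500 kb by amplitude (0.192). Leaving out each chromosome moved naive dKO between 0.790 and 1.46 on the centromere side and between -1.52 and -0.659 on the telomere side, and EpiLC dKO between 0.248 and 0.565 on the centromere side.

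The outward share in EpiLC minus naive had no stable direction. On the centromere side in KMT2CKO, its interval included 0 over 500 kb (0.801, and 0.776 without T minus A), over 2 Mb (0.173), without T minus A (0.413), after thinning (0.406) and over 5 Mb (0.144). On the telomere side in KMT2CKO, it was below 0 by amplitude (-1.37) and over 500 kb without T minus A (-1.19) or by amplitude (-2.44). In dKO, the centromere side gave 2.31 with no bins left out, -0.800 over 2 Mb, -0.0146 from the first known base, -0.289 without T minus A, -0.137 after thinning, 1.60 over 500 kb by amplitude and -0.277 over 5 Mb, and the telomere side -0.112 over 2 Mb, -0.232 without T minus A, -0.927 by amplitude, -0.180 after thinning, -0.871 over 500 kb by amplitude and -0.153 over 5 Mb. In dCD, the centromere side gave 3.32 with no bins left out, 1.06 over 500 kb (1.24 without T minus A, 3.79 by amplitude), -0.557 over 2 Mb, 0.737 by amplitude and 0.160 over 5 Mb, and the telomere side 1.19 as a mean over chromosomes, -0.641 over 2 Mb, -1.33 by amplitude, -2.15 over 500 kb by amplitude and -0.364 over 5 Mb. Leaving out each chromosome gave 0.341 to 1.05 (KMT2CKO), -0.271 to 0.330 (dKO) and -0.497 to 0.223 (dCD) on the centromere side and -0.129 to 0.528 (dKO) and 0.178 to 0.993 (dCD) on the telomere side.

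Read density ratios over 5 Mb lay within 3% of 1 and turned easily. With no bins left out, centromere-side values were 1.001 (naive dKO), 1.001 (EpiLC dCD) and, for EpiLC over naive, 0.9995 (KMT2CKO), 0.9994 (dKO) and 0.982 (dCD), with 0.994 for KMT2CKO on the telomere side. Over 1 Mb, the naive mutants gave 0.976 and 1.008 (dKO) and 1.006 and 0.951 (dCD) on the centromere and telomere side. EpiLC dKO gave 0.977 and 0.997, EpiLC dCD 0.977 on the centromere side, and EpiLC over naive 1.05 (KMT2CKO, telomere), 1.0004 (dCD, centromere) and 1.07 (dCD, telomere). Leaving out each chromosome gave, on the centromere side, 0.995 to 1.001 (naive dKO), 0.998 to 1.006 (EpiLC dKO), 1.002 to 1.010 (EpiLC dCD) and, for EpiLC over naive, 1.004 to 1.014 (KMT2CKO) and 0.994 to 1.007 (dCD). On the telomere side, it gave 0.992 to 0.998 (naive dCD) and, for EpiLC over naive, 0.989 to 0.999 (KMT2CKO) and 1.002 to 1.010 (dKO). Relative read density counted only over bins with sequence and a read was 0.920, 0.919 and 0.936 (naive KMT2CKO, dKO, dCD) and 0.928, 0.930 and 0.934 (EpiLC) on the centromere side and 1.10, 1.09 and 1.09 and 1.09, 1.10 and 1.07 on the telomere side. The naive libraries are shallower than the EpiLC libraries, and their intervals are wider.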
